A study of Mus musculus with 7 samples.

Results

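The genes described here are 9 mouse genes whose proteins act in growing or injured axons: *Gap43*, *Sprr1a*, *Basp1*, *Flrt3*, *Ecel1*, *Csrp3*, *Gadd45a*, *Cd44* and *Anxa1*. They were taken by symbol from a table of 54309 genes, each symbol matched 1 row, and all 9 were above 0 in all 7 samples. The samples are RNA-seq libraries of lumbar dorsal root ganglia, which hold the cell bodies of sensory neurons, from C57bl/6 mice of 6 to 8 weeks that are all labelled male, a label that the Y-linked transcripts of ZT20 replicates 3 and 4 go against. ZT20 replicate 2 held Y-linked transcripts together with *Xist* at 1.08 TPM. Sciatic nerve injury fell 20 hours after lights on (Zeitgeber time 20, ZT20) in 4 samples and at ZT8 in 3, and ganglia were taken 72 h later. The labels name no genotype beyond the strain, and in both groups the cells were dissociated and enriched for neurons on a BSA gradient. No uninjured ganglia were analysed here, so the levels show these genes after injury and not their induction by it. The labels do not say how many animals made a sample, so p-values measure only the spread between these samples.

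When a peripheral axon is cut, the neuron's cell body switches on a set of genes that support regrowth, and dorsal root ganglion neurons are the classic place to study this. The set includes membrane proteins of the growth cone, the moving tip of the axon, along with adhesion receptors, enzymes and stress proteins. Transcription factors such as ATF3 and JUN are known to drive part of it. The series asks whether the time of day tunes regeneration, and the comparison of ZT20 with ZT8 asks whether these effectors differ with it.

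Values are transcript abundances in TPM, which divide by transcript length and sum to the same total in each sample, so levels can be set side by side between genes. Sequencing depth is unknown. Genes above 0 TPM numbered 24192 to 25238 per ZT20 sample and 18297 to 22973 per ZT8 sample, lowest in ZT8 replicate 2. The ganglion label matched its markers: all 10 sensory neuron markers were detected, with a summed level of 14289 to 18158 TPM at ZT20 and 11361 to 17246 TPM at ZT8. The 7 satellite glia markers summed to 7635 to 9325 TPM at ZT20 and 12900 to 15711 TPM at ZT8, without overlap. Singly, 3 of the 7 were lower in every ZT20 sample than in every ZT8 sample, beside 8.72% of all tested genes. A positive log2 difference, ZT20 minus ZT8, was seen in 2 of the 7, and a TPM sum is weighted towards abundant markers. In bulk samples, fewer cells of a type and less RNA per cell cannot be told apart. ZT20 replicates 3 and 4, labelled male, held 0.0162 and 0.00868 TPM over 4 Y-linked genes, against 33.1 to 84.6 TPM in the other 5 samples. *Xist* was at 2.21 and 2.30 TPM in those 2 libraries and at 1.08 TPM in ZT20 replicate 2. The library identifiers in the sample descriptions begin with a digit for every ZT20 sample and with a letter for every ZT8 sample. No batch is named, and one that followed these identifiers and the clock time cannot be told apart.

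Differences are given as ZT20 minus ZT8 in log2(TPM + 1), where 1 is a doubling for well-expressed genes, and a gene is called at a Benjamini-Hochberg adjusted p-value under 0.05 in limma over 14800 genes. Of the 9 genes, 3 were called higher at ZT20 (*Basp1*, *Flrt3* and *Cd44*), beside 12.8% of all tested genes. None of the 9 was called lower by limma, beside 3.61% of all tested genes, and at an unadjusted p-value under 0.05 there were 5 higher and 1 lower, beside 34.6% of all tested genes in either direction. The groups did not overlap for 4 genes higher at ZT20, beside 24.5% of all tested genes, and for 1 gene lower, beside 8.72%, with 33.2% in either direction over all tested genes. The 1 lower gene in both counts is *Csrp3*, which reached the 1 TPM filter only through the ZT8 samples where it is high, so the filter favoured that direction. The median difference of the 9 was 0.39 and that of all tested genes 0.23. That general shift depends on scaling: median-ratio scaling moved the median of all genes to 0.019, quantile normalization to 0.035, and a correction for transcript length and GC content to −0.0083. Of all called genes 78.1% were higher at ZT20 as deposited, and 46.5%, 57.2% and 40.5% in those 3 fits. Without ZT20 replicates 3 and 4, limma called 0 of 14800 genes while 2425 had an unadjusted p-value under 0.05, so no call below passed without those libraries.

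**Figure D1:**
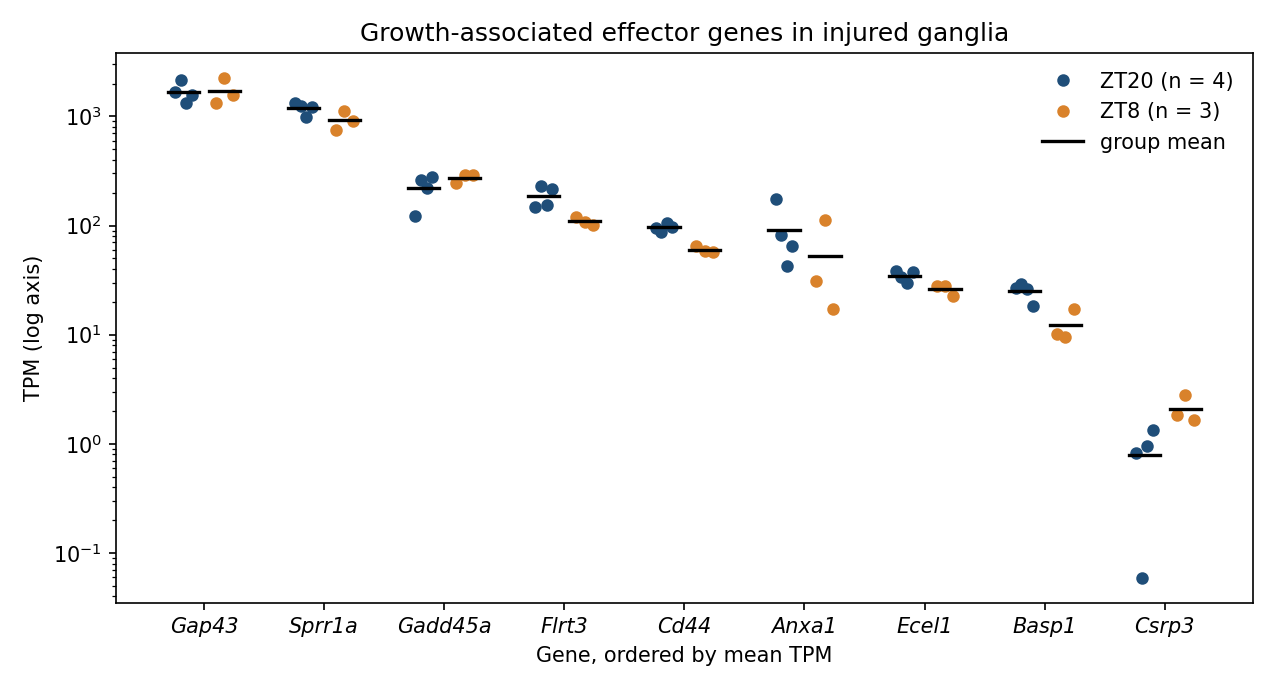
TPM (log axis) of the 9 genes in each sample, ordered by mean level, with ZT20 (n = 4) and ZT8 (n = 3) as points and the group mean as a bar. *Gap43* and *Sprr1a* sit at 744 TPM or above in every sample, *Csrp3* at 2.80 TPM or below, and the groups separate for *Flrt3*, *Cd44*, *Ecel1*, *Basp1* and *Csrp3*.

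The levels spanned 3 orders of magnitude. *Gap43* had the highest mean over the 7 samples, 1696 TPM, and was rank 39 to 86 among all genes of each sample. *Sprr1a* followed with 1079 TPM and rank 79 to 184, and its range overlapped that of *Gap43*. These 2 genes made up 79.6% to 84.7% of the summed TPM of the 9 genes in every sample. After a gap that no sample bridged came *Gadd45a* (mean 243 TPM), *Flrt3* (154 TPM), *Cd44* (80.7 TPM), *Anxa1* (74.8 TPM), *Ecel1* (31.0 TPM) and *Basp1* (19.6 TPM), each overlapping its neighbour in range. Another gap separated *Csrp3* (1.35 TPM), whose mean was 14.5 times below that of *Basp1*. Spread within a group also differed widely. The coefficient of variation of *Cd44* was 7.35% at ZT20 and 6.88% at ZT8, that of *Anxa1* was 64.3% and 95.9%, and the medians of all tested genes were 16.1% and 29.0%.

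*Gap43* (ENSMUSG00000047261) encodes a membrane-bound protein kinase C substrate that is concentrated in growth cones and serves as the standard marker of axon growth. Its level was 1666, 2163, 1315 and 1585 TPM in ZT20 (replicates 1 to 4 in this order throughout) and 1330, 2247 and 1567 TPM in ZT8 replicates 1 to 3. The groups overlapped almost fully, and each held 1 sample above 2000 TPM, replicate 2 in both. The group means were 1682 ± 354 TPM at ZT20 (SD, n = 4) against 1715 ± 476 TPM at ZT8 (SD, n = 3). The log2 difference was −0.015 with a 95% interval of −0.50 to 0.47 (limma, adjusted p = 0.967). Its sign changed with the scaling, as in quantile normalization (0.12).

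*Basp1* (ENSMUSG00000045763) encodes another growth cone protein, lipid-anchored to the inner membrane like GAP43 and likewise a kinase C substrate. It was at 26.8, 29.4, 26.2 and 18.2 TPM in the ZT20 samples and at 10.2, 9.61 and 17.1 TPM in the ZT8 samples. Every ZT20 sample lay above every ZT8 sample, with ZT20 replicate 4 and ZT8 replicate 3 close to each other. The means were 25.1 ± 4.80 TPM at ZT20 (SD, n = 4) against 12.3 ± 4.16 TPM at ZT8 (SD, n = 3), a 2.04-fold ratio and 1.00 ± 0.24 (SE) as a log2 difference (limma, adjusted p = 0.0282). An exact two-sided test by permutation of all 35 sample splits gave p = 0.0286, the smallest it allows. *Basp1* rose at ZT20 while its functional relative *Gap43* did not pass, and the difference between these 2 differences was not tested. In the group of 1475 tested genes of like transcript length, 3.59% had a larger difference, and after the length and GC correction it was 0.95 (limma, adjusted p = 0.0398). The call was lost under median-ratio scaling (0.76, limma, adjusted p = 0.0743) and quantile normalization (0.74, limma, adjusted p = 0.0922), and without the filter on low values (limma, adjusted p = 0.0708). With the neuron minus glia marker score as a covariate the difference was 0.36 (limma, adjusted p = 0.795). That score itself separated the groups, at 3.60 to 3.94 in ZT20 and 3.05 to 3.42 in ZT8 samples. It can hardly be told apart from the clock time, and with it limma called 0 of 14800 genes. Log2 *Basp1* and the log2 sum of satellite glia markers had Pearson's r = −0.83 over the 7 samples, and the part of glial content in the result was not tested. Both separate the groups, so this r holds the group difference. It was also the largest in size among the cell type marker lists. The call was also lost without ZT20 replicate 1, 2 or 3 or ZT8 replicate 1 or 2, with values from 0.86 to 0.97 and limma adjusted p-values from 0.0508 to 0.0899. Without ZT20 replicates 3 and 4 the difference was 1.17 (limma, adjusted p = 0.184).

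The promoter of *Basp1* is shown because it is 1 of the 3 called genes and differs from the others in composition. It is a CG-rich promoter, with 78.8% G or C and 30 CG dinucleotides in the 250 bases before the start site (RefSeq, GRCm38.p6, chr15:25413765-25414014, minus strand, 5′ to 3′).
Basp1: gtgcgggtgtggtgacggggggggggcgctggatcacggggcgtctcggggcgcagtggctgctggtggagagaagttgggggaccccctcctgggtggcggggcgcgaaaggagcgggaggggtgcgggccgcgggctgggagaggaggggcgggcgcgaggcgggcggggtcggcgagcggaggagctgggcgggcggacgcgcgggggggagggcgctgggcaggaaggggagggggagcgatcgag

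*Sprr1a* (ENSMUSG00000050359) encodes a small proline-rich protein of the cornified envelope of skin, which injured sensory neurons are known to switch on and which promotes neurite outgrowth. It was at 1329, 1252, 984 and 1213 TPM in the ZT20 samples and at 744, 1114 and 915 TPM in the ZT8 samples. The 3 highest samples were all ZT20 and the 2 lowest ZT8, and the ranges overlapped through ZT20 replicate 3 and ZT8 replicate 2. The means were 1194 ± 148 TPM at ZT20 (SD, n = 4) against 925 ± 185 TPM at ZT8 (SD, n = 3), or 0.38 ± 0.16 (SE) as a log2 difference that did not pass (limma, adjusted p = 0.135, two-sided exact permutation p = 0.0857). It ran from 0.23 without ZT8 replicate 1 (limma, adjusted p = 0.333) to 0.52 without ZT8 replicate 2 (limma, adjusted p = 0.0456), and was 0.13 under median-ratio scaling (limma, adjusted p = 0.681). Of 18 listed genes of the family and its epidermal partners, 17 were in the table, 6 of them at 0 in all samples, and only *Sprr2a2*, named after its values were seen, reached a mean of 1 TPM, at 4.79 ± 2.25 TPM at ZT20 (SD, n = 4) against 1.69 ± 1.72 TPM at ZT8 (SD, n = 3; limma, adjusted p = 0.118). The closest paralog, *Sprr1b*, was at 0.193 to 0.849 TPM at ZT20, listed at 0 in 2 ZT8 samples and at 0.293 TPM in the third. *Sprr1a* shares sequence with these paralogs, and how reads were divided among them is not given in the sources used here.

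The *Sprr1a* promoter is shown because, of the 8 genes with a promoter entry, it alone held a match to the AP-1 motif, the site that JUN family dimers bind. Letters searched were TGANTCA for AP-1 and CACGTG for the E-box bound by clock factors, each its own reverse complement, so both strands were covered and the 2 do not overlap. The 300-base windows ran from 250 bases before to 50 after the RefSeq start, and of 32851 such windows 7.8% held TGANTCA and 7.2% CACGTG. *Sprr1a* held 2 AP-1 matches, at −146 and −116 from the start and 30 bases apart, printed in capitals below, and no CG dinucleotide in the 250 bases before the start (0 found). None of the 8 genes held CACGTG in its window (0 of 8). A match describes the letters and does not show binding.
Sprr1a (chr3:92485882-92486131, minus strand, GRCm38.p6): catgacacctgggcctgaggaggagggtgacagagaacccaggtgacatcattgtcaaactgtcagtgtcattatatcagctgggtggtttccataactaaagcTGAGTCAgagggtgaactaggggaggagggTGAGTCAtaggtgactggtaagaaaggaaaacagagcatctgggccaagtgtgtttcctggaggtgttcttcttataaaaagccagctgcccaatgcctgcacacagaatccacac

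The factors that bind such sites were read out in the same fit. *Jun* was at 328 to 476 TPM at ZT20 and 280 to 497 TPM at ZT8, a log2 difference of 0.062 (limma, adjusted p = 0.849) whose sign turned under median-ratio scaling (−0.19). *Atf3* was at 281 to 400 TPM and 357 to 408 TPM, a difference of −0.17 (limma, adjusted p = 0.452). *Junb* was lower at ZT20, −0.65 ± 0.19 (SE; limma, adjusted p = 0.0485), a call held only without ZT8 replicate 3 among the 7 fits that left out 1 library, where the others gave limma adjusted p-values of 0.0671 to 0.117. Quantile normalization also ended it (−0.57, limma, adjusted p = 0.0938).

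*Flrt3* (ENSMUSG00000051379) encodes a transmembrane leucine-rich repeat protein that binds latrophilins and UNC5 receptors and supports FGF signalling. It was at 149, 228, 155 and 216 TPM in the ZT20 samples and at 121, 109 and 102 TPM in the ZT8 samples. The lowest ZT20 sample exceeded the highest ZT8 sample, and the ZT20 samples fell in 2 pairs, replicates 2 and 4 above 1 and 3. The means were 187 ± 40.6 TPM at ZT20 (SD, n = 4) against 110 ± 9.80 TPM at ZT8 (SD, n = 3), a 1.70-fold ratio and 0.73 ± 0.18 (SE) as a log2 difference (limma, adjusted p = 0.0271, two-sided exact permutation p = 0.0286). It lies within *Macrod2*, a gene of the opposite strand in GENCODE M21, and whether reads were assigned by strand is not given in the sources used here. The call was lost under median-ratio scaling (0.49, limma, adjusted p = 0.107) and after the length and GC correction (0.45, limma, adjusted p = 0.119). It was lost with the neutrophil marker sum (0.83, limma, adjusted p = 0.0601) or the neuron minus glia score (1.31, limma, adjusted p = 0.141) as a covariate, and without the filter (limma, adjusted p = 0.0704). The neuron minus glia score separated the groups, and with it limma called 0 of 14800 genes. Leaving out ZT20 replicate 2, 3 or 4 or ZT8 replicate 3 also ended it, with values of 0.63 to 0.81 and limma adjusted p-values of 0.0542 to 0.0825. So did a term for the replicate number in the fit (0.66, limma, adjusted p = 0.0680). Without ZT20 replicates 3 and 4 the value was 0.74 (limma, adjusted p = 0.203).

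The family and binding partners of *Flrt3* held 10 tested genes, of which 4 rose, 0 fell and 6 did not pass, with a median difference of 0.94. By limma 0 were called lower, and 0 were lower at an unadjusted p-value under 0.05. *Flrt1* was at 3.33 ± 0.549 TPM at ZT20 (SD, n = 4) against 0.598 ± 0.528 TPM at ZT8 (SD, n = 3), a log2 difference of 1.49 (limma, adjusted p = 0.0158). *Flrt2* was at 7.16 ± 1.21 TPM at ZT20 (SD, n = 4) against 2.42 ± 1.15 TPM at ZT8 (SD, n = 3), a difference of 1.30 (limma, adjusted p = 0.0165). *Flrt1* had a ZT8 mean under 1 TPM and reached the filter only through the ZT20 samples where it is high, and with no filter it was not called (limma, adjusted p = 0.0573). The length and GC correction ended both calls, with 0.87 for *Flrt1* and 0.74 for *Flrt2* (limma, adjusted p = 0.0697 and 0.105). Without ZT20 replicate 3 or 4, *Flrt1* and *Flrt2* did not pass (limma adjusted p-values of 0.0570 to 0.0611). The other 2 called, named after their values were seen, were the latrophilin *Adgrl2* and the guidance receptor *Robo1*.

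*Cd44* (ENSMUSG00000005087) encodes the main cell-surface receptor for hyaluronan, a sugar polymer of the extracellular matrix. It was at 94.4, 87.4, 104 and 97.6 TPM in the ZT20 samples and at 65.0, 58.4 and 57.4 TPM in the ZT8 samples. The groups were far apart relative to their spread, ZT20 from 87.4 TPM upward and ZT8 up to 65.0 TPM. The means were 96.0 ± 7.05 TPM at ZT20 (SD, n = 4) against 60.3 ± 4.15 TPM at ZT8 (SD, n = 3), a 1.59-fold ratio and 0.66 ± 0.12 (SE) as a log2 difference (limma, adjusted p = 0.0106, two-sided exact permutation p = 0.0286). The call held in each of the 7 fits that left out 1 library (limma adjusted p-values of 0.0117 to 0.0487), under median-ratio scaling (0.41, limma, adjusted p = 0.0332) and under quantile normalization (0.59, limma, adjusted p = 0.0170). It was lost after the length and GC correction (0.16, limma, adjusted p = 0.345) and with the neuron minus glia score as a covariate (0.60, limma, adjusted p = 0.385). That score separated the groups, and with it limma called 0 of 14800 genes. *Cd44* has a long transcript, and in the group of 1474 tested genes of like length the median difference was 0.56, 27.1% were called higher and 42.5% had a larger difference. Without ZT20 replicates 3 and 4 the difference was 0.59 (limma, adjusted p = 0.189). Across the 7 samples log2 *Cd44* and the log2 sum of satellite glia markers had Pearson's r = −0.93, over samples that share these group differences and library makeup, and the part of glial content in the result was not tested. This r was the largest in size among the cell type marker lists.

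The promoters of *Flrt3* and *Cd44*, the other called genes, are shown for comparison with that of *Basp1*. Each has 5 CG dinucleotides in 250 bases.
Flrt3 (chr2:140671477-140671726, minus strand, GRCm38.p6): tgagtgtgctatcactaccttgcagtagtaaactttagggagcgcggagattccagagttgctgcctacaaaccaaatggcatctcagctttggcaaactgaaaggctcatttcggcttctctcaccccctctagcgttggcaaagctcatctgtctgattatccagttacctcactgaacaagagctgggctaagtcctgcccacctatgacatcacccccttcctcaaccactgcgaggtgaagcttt
Cd44 (chr2:102901666-102901915, minus strand, GRCm38.p6): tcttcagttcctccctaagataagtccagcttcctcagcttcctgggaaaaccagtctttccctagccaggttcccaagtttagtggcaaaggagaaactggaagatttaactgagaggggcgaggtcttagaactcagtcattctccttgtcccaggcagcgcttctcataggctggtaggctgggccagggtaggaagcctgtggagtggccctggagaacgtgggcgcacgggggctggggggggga

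Of the genes listed as ligands and partners of CD44, 8 were tested, 2 rose and 6 did not pass. Both that rose encode proteins that tie membrane receptors to actin. *Rdx* (radixin) was at 51.4 ± 3.38 TPM at ZT20 (SD, n = 4) against 18.4 ± 2.34 TPM at ZT8 (SD, n = 3), or 1.44 ± 0.14 (SE) as a log2 difference (limma, adjusted p = 0.00196). That call held without any 1 library and after the length and GC correction. *Msn* (moesin) was at 328 ± 41.8 TPM at ZT20 (SD, n = 4) against 198 ± 52.4 TPM at ZT8 (SD, n = 3), a difference of 0.75 (limma, adjusted p = 0.0289) that passed in 2 of the 7 fits that left out 1 library. It was lost without ZT20 replicate 1, 3 or 4 or ZT8 replicate 2 or 3 (limma adjusted p-values of 0.0525 to 0.0923), and also under median-ratio scaling (0.50, limma, adjusted p = 0.0569) and after the length and GC correction (0.43, limma, adjusted p = 0.0896).

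**Figure D2:**
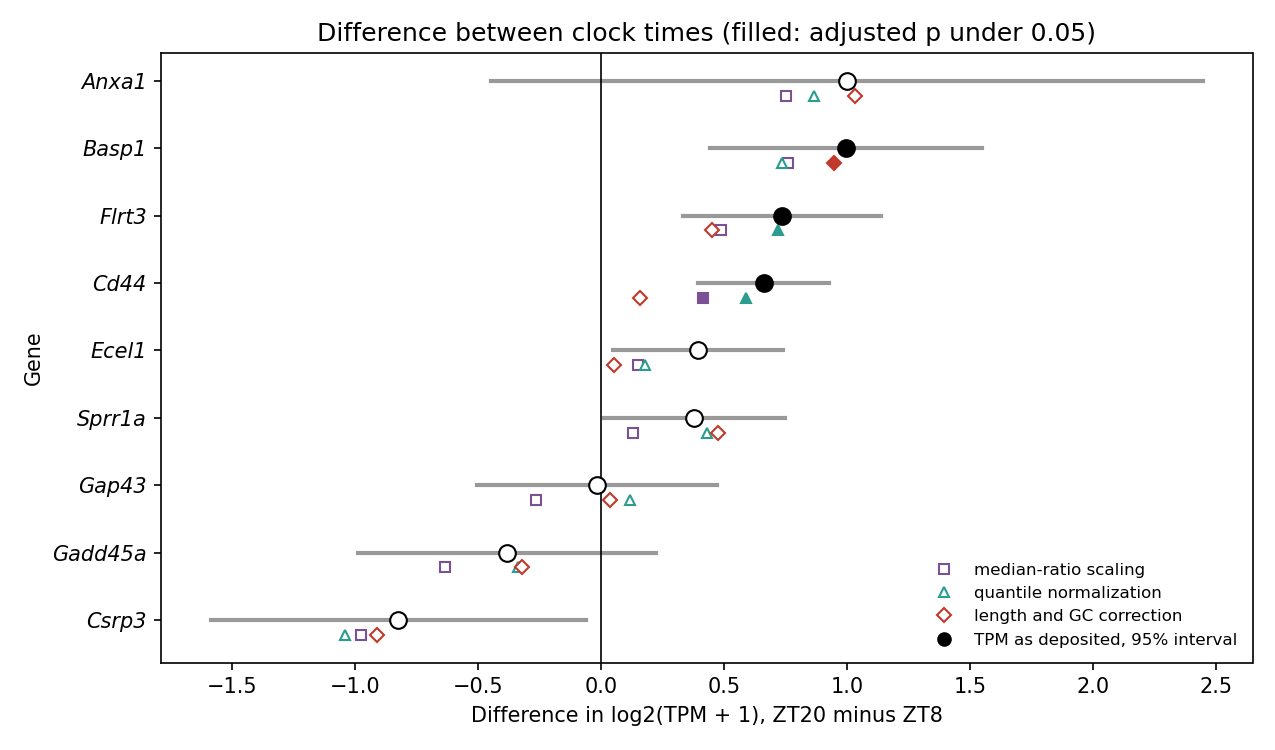
Difference in log2(TPM + 1), ZT20 minus ZT8, of the 9 genes (black points, bars are 95% intervals from limma) and the same after 3 other treatments of the values (median-ratio, quantile, length with GC content), with filled symbols for an adjusted p under 0.05. *Basp1*, *Flrt3* and *Cd44* are filled as deposited, and each is filled in some but not all of the other fits.

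*Ecel1* (ENSMUSG00000026247) encodes a membrane metallopeptidase of the M13 family that is strongly induced in neurons by nerve injury. It was at 38.2, 33.4, 29.7 and 37.5 TPM in the ZT20 samples and at 28.0, 27.8 and 22.7 TPM in the ZT8 samples. The groups did not overlap, though ZT20 replicate 3 and ZT8 replicate 1 differed by under 2 TPM. The means were 34.7 ± 3.94 TPM at ZT20 (SD, n = 4) against 26.2 ± 3.01 TPM at ZT8 (SD, n = 3), and the log2 difference of 0.39 ± 0.15 (SE) did not pass (limma, adjusted p = 0.106, two-sided exact permutation p = 0.0571). After the length and GC correction it was 0.052. Of 4 tested M13 relatives only *Ece1*, an endothelin-converting enzyme, was called higher, at 43.6 ± 5.35 TPM at ZT20 (SD, n = 4) against 23.8 ± 9.17 TPM at ZT8 (SD, n = 3; difference 0.90, limma, adjusted p = 0.0356). The *Ece1* call held in 1 of the 7 fits that left out 1 library, that without ZT8 replicate 1, and the others gave limma adjusted p-values of 0.0520 to 0.107. After the length and GC correction *Ece1* differed by 0.38 (limma, adjusted p = 0.163), and the call was also lost under median-ratio scaling and quantile normalization (limma, adjusted p = 0.0587 and 0.0534). *Ece2* (0.44, limma, adjusted p = 0.139) and *Mme* (0.53, limma, adjusted p = 0.168) did not pass.

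Polyamines are growth-promoting molecules made from arginine, and their enzymes were read as a list. Of 15 tested genes of arginine and polyamine metabolism 2 rose and 13 did not pass, with a median of 0.070. The groups did not overlap for 3 genes higher at ZT20 and 2 lower, beside 24.5% and 8.72% of all tested genes. The summed level of the 16 genes in the table was lower at ZT20, 2334 to 2701 TPM against 2763 to 2949 TPM at ZT8. *Amd1*, which makes the aminopropyl donor for polyamine synthesis, was at 41.2 ± 3.38 TPM at ZT20 (SD, n = 4) against 20.1 ± 4.23 TPM at ZT8 (SD, n = 3), a difference of 1.02 (limma, adjusted p = 0.00860) that held without any 1 library. *Nos1*, the neuronal nitric oxide synthase, differed by 1.04 (limma, adjusted p = 0.0239) and by 0.25 after the length and GC correction. It was lost without ZT20 replicate 1, 3 or 4 (limma adjusted p-values of 0.0521 to 0.0870).

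*Csrp3* (ENSMUSG00000030470) encodes muscle LIM protein, an actin-linked protein of striated muscle that injured sensory neurons also make. It was at 0.823, 0.0595, 0.962 and 1.33 TPM in the ZT20 samples and at 1.83, 2.80 and 1.64 TPM in the ZT8 samples. It is the 1 gene of the 9 whose ZT8 samples all lay above its ZT20 samples, and it reached the filter of a mean of 1 TPM only through the ZT8 group, so it had to be higher there. The log2 difference was −0.82 ± 0.33 (SE) and did not pass (limma, adjusted p = 0.120, two-sided exact permutation p = 0.0571). With a pseudocount of 0.1 it was −1.64 (limma, adjusted p = 0.197). Skeletal muscle markers were low, with a summed level over 6 genes of 4.95 to 10.3 TPM at ZT20 and 6.59 to 11.3 TPM at ZT8. Its relative *Csrp1* fell, from 61.7 ± 16.6 TPM (SD, n = 3) at ZT8 to 28.6 ± 9.89 TPM (SD, n = 4) at ZT20, a difference of −1.12 (limma, adjusted p = 0.0476). The *Csrp1* call held in 1 of the 7 fits that left out 1 library, that without ZT8 replicate 1, with limma adjusted p-values of 0.0663 to 0.122 in the others. It was also lost after the length and GC correction (−1.15, limma, adjusted p = 0.0691) and with the neutrophil marker sum as a covariate (−0.60, limma, adjusted p = 0.280). *Csrp2* differed by −0.27 (limma, adjusted p = 0.344).

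*Gadd45a* (ENSMUSG00000036390) encodes a stress protein induced by DNA damage and by axon injury. It was at 121, 259, 219 and 280 TPM in the ZT20 samples and at 247, 289 and 288 TPM in the ZT8 samples. ZT20 replicate 1 lay well below the other 6 samples, which overlapped. The log2 difference was −0.38 ± 0.27 (SE; limma, adjusted p = 0.332), and −0.12 without ZT20 replicate 1. *Gadd45g* was of like abundance, 312 ± 49.2 TPM at ZT20 (SD, n = 4) against 351 ± 58.0 TPM at ZT8 (SD, n = 3), and *Gadd45b* much lower, 8.53 ± 0.895 TPM at ZT20 (SD, n = 4) against 6.56 ± 1.69 TPM at ZT8 (SD, n = 3). Neither passed (limma, adjusted p = 0.482 and 0.266). Of 10 tested family members and p53 targets 1 fell and 9 did not pass. The one that fell was *Bbc3*, which encodes the death-promoting protein PUMA, with a difference of −1.01 (limma, adjusted p = 0.0368). That call held only without ZT8 replicate 1 among the 7 fits that left out 1 library, and the others gave limma adjusted p-values of 0.0561 to 0.0949.

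*Anxa1* (ENSMUSG00000024659) encodes a calcium-dependent phospholipid-binding protein that damps inflammation through formyl peptide receptors and is abundant in neutrophils. It was at 176, 81.0, 42.5 and 65.0 TPM in the ZT20 samples and at 30.8, 111 and 17.2 TPM in the ZT8 samples. The spread within each group was the widest of the genes above 10 TPM, and ZT8 replicate 2 exceeded 3 of the 4 ZT20 samples. The log2 difference was 1.00, as large as that of *Basp1*, but its standard error was 0.64 and it did not pass (limma, adjusted p = 0.292, two-sided exact permutation p = 0.286). It ran from 0.43 without ZT8 replicate 3 and 0.62 without ZT20 replicate 1 to 1.74 without ZT8 replicate 2 (limma, adjusted p = 0.650, 0.528 and 0.0513). In GENCODE M21 it lies within an opposite-strand noncoding gene.

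*Anxa1* followed the neutrophil markers from sample to sample. The summed level of 8 neutrophil markers was 4954, 1198, 849 and 1105 TPM in the ZT20 samples and 319, 1014 and 113 TPM in the ZT8 samples. All 8 had a positive difference and 4 were called higher, and all 8 were above the filter. Against the summed markers *Anxa1* had Spearman's rho = 0.89. The samples ranked in exactly the same order by *Anxa1* as by 1 of the 8 markers, *S100a9*, named after its values were seen (Spearman's rho = 1). On the log2 scale *Anxa1* and the summed markers had Pearson's r = 0.95 over 7 samples and 0.97 after each group's mean was removed. Without ZT20 replicate 1 and ZT8 replicate 3, the samples farthest from the median sum, r was 0.80 over 5. The points share library and depth, and this list was picked from 10 marker lists after the values were seen. With the log2 sum as a covariate the *Anxa1* difference was −0.73 in place of 1.00 (limma, adjusted p = 0.0916), that of *Cd44* was 0.68 (limma, adjusted p = 0.0403) and that of *Basp1* 1.24 (limma, adjusted p = 0.0472). *Ecel1* and *Sprr1a* also had high values against the sum, r = 0.88 and 0.79 over 7 samples, 0.57 and 0.98 without the same 2 samples, and 0.75 and 0.60 after group means were removed. Their differences with the covariate were 0.19 and 0.15 (limma, adjusted p = 0.493 and 0.606).

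**Figure D3:**
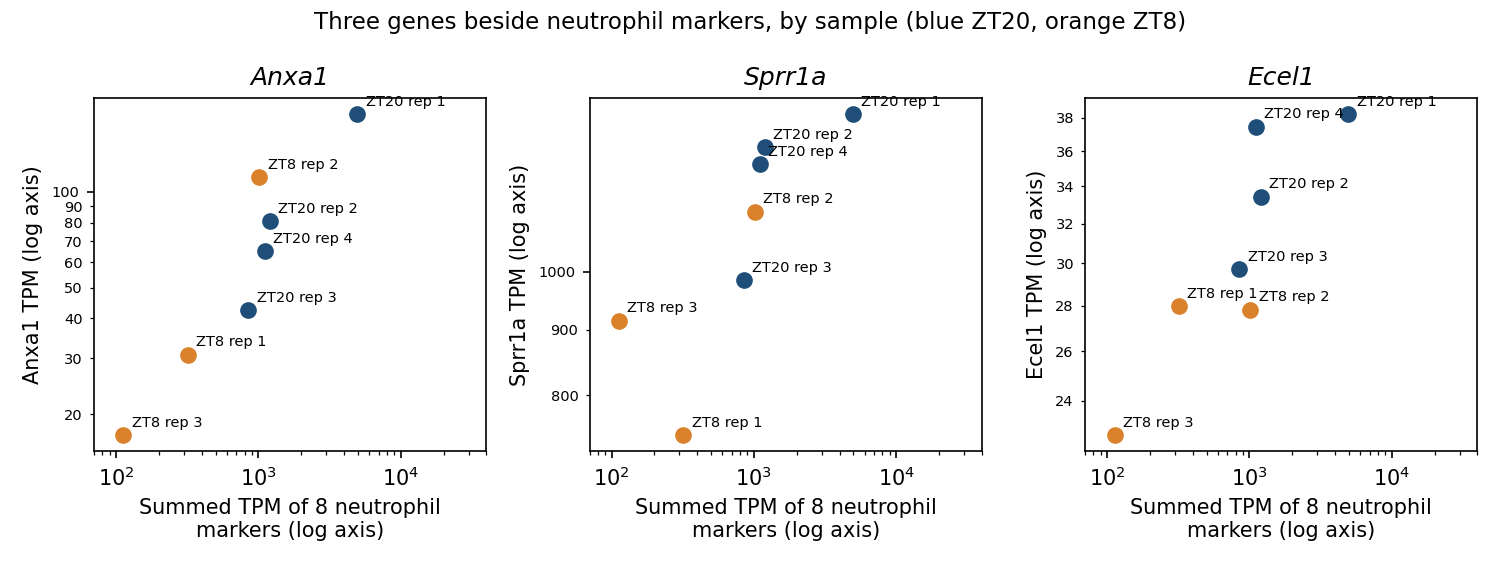
TPM of *Anxa1*, *Sprr1a* and *Ecel1* (log axes) against the summed TPM of 8 neutrophil markers (log axis) in each of the 7 samples, ZT20 in blue and ZT8 in orange. *Anxa1* climbs from 17.2 TPM in ZT8 replicate 3, the sample with the fewest marker transcripts (113 TPM), to 176 TPM in ZT20 replicate 1, the sample with the most (4954 TPM).

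Of 13 tested annexins and partners 1 rose and 12 did not pass, with a median difference of 0.19. The abundant annexins lay close in both groups: *Anxa2* was at 2377 ± 176 TPM at ZT20 (SD, n = 4) against 2450 ± 60.3 TPM at ZT8 (SD, n = 3), and *Anxa5* at 1653 ± 91.3 TPM at ZT20 (SD, n = 4) against 1587 ± 170 TPM at ZT8 (SD, n = 3). Their differences were −0.046 and 0.063 (limma, adjusted p = 0.772 and 0.712), with signs that changed under quantile normalization for *Anxa2* and median-ratio scaling for *Anxa5*. The gene that rose was *S100a11*, whose protein binds ANXA1. It was at 161 ± 42.1 TPM at ZT20 (SD, n = 4) against 70.1 ± 8.71 TPM at ZT8 (SD, n = 3), a difference of 1.16 ± 0.19 (SE; limma, adjusted p = 0.00915), and the call held without any 1 library.

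**Figure D4:**
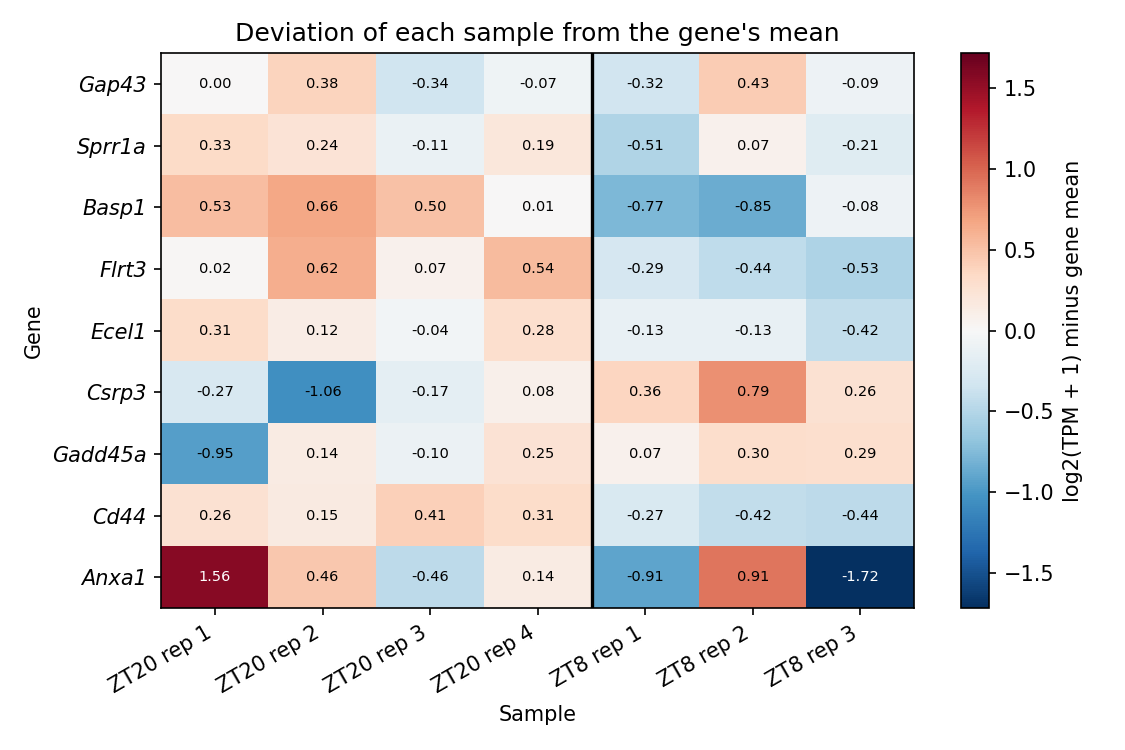
Deviation of each sample from the gene's mean in log2(TPM + 1), genes in rows and samples in columns, red above and blue below the mean. *Cd44*, *Flrt3* and *Basp1* are at or above their means in the 4 ZT20 columns and below in the 3 ZT8 columns, while the extremes of *Anxa1* and *Gadd45a* fall in single samples of either group.

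The genes did not move as 1 block across samples. Of the 36 pairs, 21 had a positive Pearson's r of log2(TPM + 1) over the 7 samples, the median r was 0.21, and only *Sprr1a* with *Anxa1* exceeded 0.8 (r = 0.80, and 0.74 after group means were removed). *Cd44* with *Flrt3* had r = 0.80 but −0.26 after group means were removed. The strongest values after that removal were those of *Gap43* with *Sprr1a*, 0.86 (0.60 before), and of *Gap43* with *Cd44*, −0.83 (−0.24 before). The lowest value was that of *Basp1* with *Csrp3*, r = −0.88 (−0.68 after group means were removed), whose 7 samples ranked in exactly opposite order (Spearman's rho = −1). These are descriptions over samples that share library and depth.

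Other genes of the regeneration program were read from lists of growth cone proteins, injury-induced effectors and injury factors. Of 19 tested growth cone proteins 5 rose, 1 fell and 13 did not pass, with a median difference of 0.44. *Dpysl2*, encoding the tubulin-binding protein CRMP2, was at 1731 ± 302 TPM at ZT20 (SD, n = 4) against 616 ± 72.1 TPM at ZT8 (SD, n = 3), a difference of 1.48 (limma, adjusted p = 0.00209) that held without any 1 library and under the 3 other scalings. *Marcks*, whose protein resembles GAP43 and BASP1 in binding membrane lipids and calmodulin, was at 25.6 ± 3.32 TPM at ZT20 (SD, n = 4) against 9.14 ± 5.32 TPM at ZT8 (SD, n = 3), a difference of 1.50 (limma, adjusted p = 0.0154). Its call was lost without ZT20 replicate 3 or 4 (limma, adjusted p = 0.0544 and 0.0547) and after the length and GC correction (1.18, limma, adjusted p = 0.0585). *Stmn3*, a tubulin-binding stathmin, fell, from 2027 ± 225 TPM (SD, n = 3) at ZT8 to 1248 ± 64.6 TPM (SD, n = 4) at ZT20, a difference of −0.69 (limma, adjusted p = 0.00778).

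Of 22 tested injury-induced effectors 4 rose and 18 did not pass, with a median of 0.15. *Plaur*, the urokinase receptor, was at 92.2 ± 31.3 TPM at ZT20 (SD, n = 4) against 20.3 ± 15.7 TPM at ZT8 (SD, n = 3), a difference of 2.34 (limma, adjusted p = 0.0161), and of 1.14 (limma, adjusted p = 0.0523) with the neutrophil marker sum as a covariate. *Igfbp3*, a binding protein for insulin-like growth factors, was at 11.9 ± 0.899 TPM at ZT20 (SD, n = 4) against 4.09 ± 1.77 TPM at ZT8 (SD, n = 3), a difference of 1.41 (limma, adjusted p = 0.0137). It did not pass without ZT20 replicate 3 or 4 (limma, adjusted p = 0.0554 and 0.0516). Of 14 injury transcription factors 4 rose, 1 fell and 9 did not pass, with a median of 0.0089. *Creb1*, the cAMP-responsive factor, was at 10.6 ± 0.629 TPM at ZT20 (SD, n = 4) against 4.75 ± 0.581 TPM at ZT8 (SD, n = 3), a difference of 1.01 (limma, adjusted p = 0.0100) that was 0.44 (limma, adjusted p = 0.127) after the length and GC correction. *Myc* differed by 0.77 (limma, adjusted p = 0.0275) and did not pass without ZT20 replicate 1, 3 or 4 or ZT8 replicate 3 (limma adjusted p-values of 0.0607 to 0.0885), nor under median-ratio scaling or quantile normalization (limma, adjusted p = 0.0574 and 0.0755). *Sox11* differed by 1.52 and did not pass (limma, adjusted p = 0.0615), though it did in 4 alternatives. These were the fit without ZT8 replicate 2 (2.01, limma, adjusted p = 0.0212), array weights (1.66, limma, adjusted p = 0.0121), the replicate block, to which ZT20 replicate 4 adds nothing for want of a partner (1.66, limma, adjusted p = 0.0140), and that block with the length and GC correction (1.03, limma, adjusted p = 0.0477). Over all its alternatives the adjusted p of *Sox11* ran from 0.0121 to 0.689. Over all these lists together 119 genes were tested, 23 rose and 4 fell, or 22.7% called, beside 16.4% of all tested genes.

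**Figure D5:**
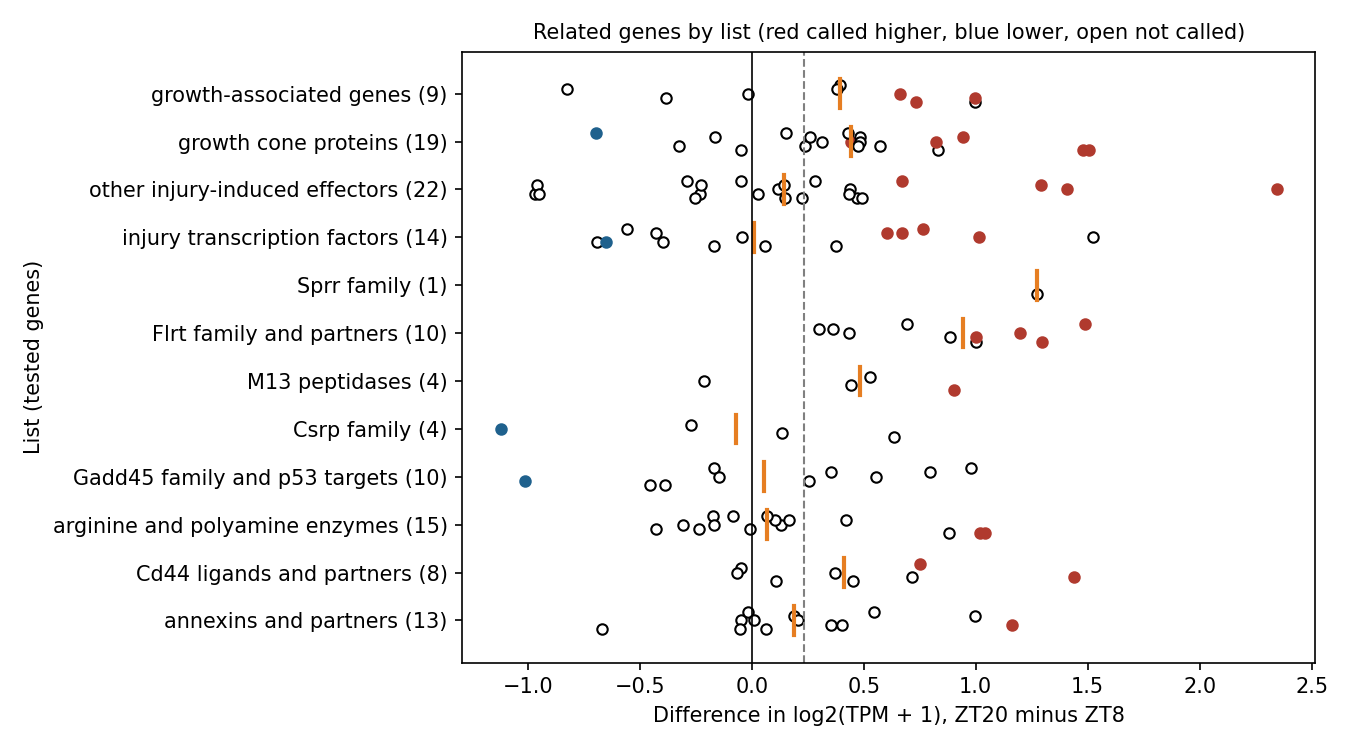
Difference in log2(TPM + 1), ZT20 minus ZT8, of each tested gene by list, red where called higher, blue where called lower and open where not called, with the list's median as an orange bar and the median of all tested genes (0.23) as a dashed line. The list of *Flrt* relatives and partners has the highest median of the plotted lists with more than 1 tested gene (0.94), and the *Csrp* family has the lowest (−0.068). Also below the dashed line are the injury transcription factors (0.0089), the *Gadd45* family with p53 targets (0.054), the arginine and polyamine enzymes (0.070), the other injury-induced effectors (0.15) and the annexins with partners (0.19).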

How the data were processed

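Per the labels' protocols, total RNA of the enriched cells went into single-cell/low-input libraries. The authors deposited 1 table of TPM for 54309 Ensembl genes, with 1 column per sample and none left unused. The submitters' processing notes name FastQC 0.11.9, Trim Galore 0.6.6, Salmon 1.6.0, DESeq2 1.34.0 and build GRCm39, without roles. The annotation release is not given in the sources used here. TPM sums to the same total in each sample, so abundant genes lower all others, and depth and counting error are unknown.

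From these values log2(TPM + 1) was fitted with limma 3.58.1 (R 4.3.3, intensity trend, two-sided, Benjamini-Hochberg over the 14800 genes whose mean reached 1 TPM), without covariates. The procedure was tested on simulated data. Single genes also had a two-sided exact permutation test over 35 splits. The genes, lists and tests were chosen with earlier results of these data known. The text names the 9 genes, their direct relatives and *Atf3*, *Jun* and *Sox11* whatever their result, and at most the 2 largest called differences per list and direction; others are marked as named after their values were seen. Transcript length, GC content and overlaps came from GENCODE M21 (length known for 99.6% of tested genes), and promoters from RefSeq on GRCm38.p6, an older build than the one named, matched by symbol for 8 of 9 genes (not *Gap43*). Alternatives were median-ratio scaling, a filter at 5 TPM or none, quantile normalization, 0.1 as pseudocount, a loess correction for length and GC content (span 0.3), the replicate block with and without it, a neuron minus glia marker score as covariate, array weights, removal of mitochondrial and immunoglobulin genes, and leaving out samples. The neutrophil covariate was added after the data were seen. Replicate numbers occur in both groups but belong to different samples, and no label says that they mark a shared litter or day. Figures were drawn with matplotlib 3.10.9. Some items are not reported here.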

Additional observations from a re-analysis of the deposited data

Results flagged for a closer look

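Among 37 genes checked for a ZT20 sample far from the other 3, 2 were found and none was among the 9 growth-associated genes, where chance at 1 in 20 gives about 1.85. For *Sox11* the sample was ZT20 replicate 2 with 117 TPM, where the rest of its group ranged from 37.2 to 46.2 TPM. For *Creb1* it was ZT20 replicate 4 with 11.5 TPM, where the rest ranged from 10.2 to 10.4 TPM.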

How the results depend on the processing

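Over 21 alternatives, the differences of *Basp1*, *Flrt3* and *Cd44* kept their sign, and 0 of their values reversed. The groups do not overlap for these genes, so leaving samples out could not reverse a sign. A change of filter leaves a difference as it was, so many of these alternatives could not have turned out otherwise. For each change the cause was not tested, except that fits with fewer samples or a further covariate have fewer degrees of freedom. As reported, 1899 genes were higher and 534 lower, 3 of the 9 genes were called higher, and 23 related genes were called higher and 4 lower. No filter gave 978 and 200, 1 of the 9, and 10 and 1 related. Median-ratio scaling gave 1089 and 1254, 1 of the 9, and 15 and 11 related. Quantile normalization gave 1003 higher. The length and GC correction gave 528 higher, 1 of the 9 and 7 related. The replicate block gave 891 and 283 genes, 2 of the 9 and 12 related, and with the length and GC correction 231 and 289, 0 of the 9 and 5 related. Array weights gave 2982 and 917, and a pseudocount of 0.1 gave 2 related genes lower. The marker score as covariate, and the fits without ZT20 replicates 3 and 4 or 2, 3 and 4, each called 0 genes by limma in every one of these counts, while 1759, 2425 and 1133 genes had an unadjusted p-value under 0.05. The fit without 2, 3 and 4 assumes that the lone ZT20 sample varies like the ZT8 samples. Without 1 library at a time the counts ran from 543 to 2374 and 81 to 681, from 1 to 3 of the 9, and from 7 to 24 and 1 to 3 related.

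Signs turned for 9 of the genes named, none of them called. *Gap43* became 0.12 under quantile normalization, 0.036 with the length and GC correction, 0.0056 with the block, 0.040 with both, 0.55 with the marker score, 0.035 with array weights and 0.18 without ZT20 replicates 3 and 4, and ran from −0.18 to 0.20 without 1 library. *Gadd45a* became 0.42 with the marker score and 0.029 with the neutrophil sum, and *Anxa1* −0.73 with the latter. The marker score also gave 0.35 for *Gadd45g*, 0.34 for *Atf3*, −0.028 for *Anxa5* and −0.17 for *Jun*. *Anxa5* was −0.19 under median-ratio scaling and −0.025 without ZT20 replicates 2, 3 and 4. *Anxa2* was 0.060 under quantile normalization, 0.021 without ZT20 replicates 3 and 4 and 0.10 without 2, 3 and 4. *Mme* was −0.012 with the length and GC correction and −0.12 with the block added. *Jun* was −0.19 under median-ratio scaling, −0.25 with the length and GC correction, −0.031 with the block, −0.31 with both, −0.084 with array weights and −0.082 without ZT20 replicates 3 and 4, and ran from −0.15 to 0.26 without 1 library.

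Same-numbered samples of the 2 groups had correlations of their deviations across genes of −0.014, 0.15 and 0.083, within the −0.17 to 0.15 of all 12 pairs. Not every same-numbered pair exceeded 0.1, so the numbers were not taken to pair the samples, and the block stayed an alternative.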
